A study of Mus musculus with 6 samples.

Results

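The 43 genes described here encode enzymes that add methyl groups to histone lysines or take them off, with the core subunits that some of them share, outside the Polycomb complexes. They were taken from a list of symbols and looked up by Ensembl identifier in the count tables, where all 43 were found among 55401 genes. RNA was measured in RAW264.7, a mouse macrophage line started from ascites of a tumour that Abelson leukaemia virus had induced. The control siRNA group holds 3 libraries labelled WT, and the Nop16 siRNA group holds 3 libraries labelled Nop16 KD. All come from this one line, and the treatment tag reads "no" throughout. The protocol text shared by every sample describes 20 nM of a Nop16 siRNA for 3 days, and no label used here says how the control cells were transfected. Nothing labels the replicates as separate cultures. The p-values therefore weigh the group difference only against the spread of these samples within groups, and that spread may be technical.

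A histone lysine can carry up to a trimethyl mark, and what the mark stands for depends on the lysine. Methylated lysine 4 of histone H3 (H3K4) marks promoters and enhancers in use, and H3K36 and H3K79 are methylated along transcribed genes. H3K9 methylation marks heterochromatin, and H4K20 methylation is tied to chromosome compaction and to the cell division cycle. Most of the methyltransferases act through a SET domain, and most of the demethylases through a JmjC domain. The title of the series concerns another lysine, H3K27, and the comparison below shows whether the RNAs of the other lysine enzymes differed when Nop16 was knocked down. In macrophages, enzymes of this kind help set which inflammatory genes can respond.

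Nop16 itself, a nucleolar protein gene, had 388, 437 and 402 counts in the control libraries and 61, 72 and 84 after Nop16 siRNA, which is 22.4% of control (95% interval 19 to 26.5%, log2 fold change -2.16, edgeR adjusted p = 2.94e-23). Percentages of control are fitted fold changes throughout. Library totals ran from 15601477 to 23061922 counts, and each control total was above each Nop16 siRNA total. Of 9 macrophage markers, all were detected, 6 were higher and 1 lower after Nop16 siRNA, with a summed level of 5062 to 5341 CPM (counts relative to library depth, scaled by the TMM method) in controls and 8091 to 8511 CPM after Nop16 siRNA. Lyz2, the lysozyme gene, went from 1144 to 2934 CPM and made up most of that difference. Without it, left out after its values were seen, the sum was 4021 to 4051 CPM in controls and 5332 to 5464 CPM after Nop16 siRNA. Both sums include Itgam, one of the markers called higher, at 760 CPM in controls and 1075 CPM after Nop16 siRNA. More than its own transcript may be counted, since 68.7% of its exonic length lies in another same-strand model, Gm49368. Of the defining markers of other cell types, Pax5, Cd3e, Cd8a, Ncr1, Col1a2, Col3a1, Dcn, Krt8, Krt18, S100a9 and Ccr7 had 0 counts in every library. Zbtb46, Lck, Csf3r, S100a8 and Pdgfra were abundant enough to be tested and none of them passed, and the Zbtb46 level was 5.19 CPM in controls and 4.46 after Nop16 siRNA.

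All 43 genes were abundant enough to be tested. After Nop16 siRNA 21 of them were lower and 4 were higher at an edgeR adjusted p below 0.05, and 18 did not pass. Over all 14269 genes tested, 45.4% passed, with 22.4% lower and 23% higher. The median log2 fold change (Nop16 siRNA minus control siRNA) was -0.15 over the 43 genes and -0.0002 over all genes. The members' changes were small: their log2 fold changes ran from -0.75 to 0.27. Their median absolute value was 0.171, against 0.206 over all genes and 0.176 over the 9639 genes within the members' range of mean CPM. Of those 9639 genes, which reach the threshold more often than all genes, 2480 were lower and 2653 higher. The 3 Nop16 siRNA libraries lay wholly below the controls for 25 members and wholly above for 4, where 26.2% and 26.3% of all genes did so. Of the 9639 genes of like abundance, 2760 lay wholly below and 2942 wholly above. In RNA from a whole culture, fewer cells that express a gene and less of its RNA per cell cannot be told apart.

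**Figure D1:**
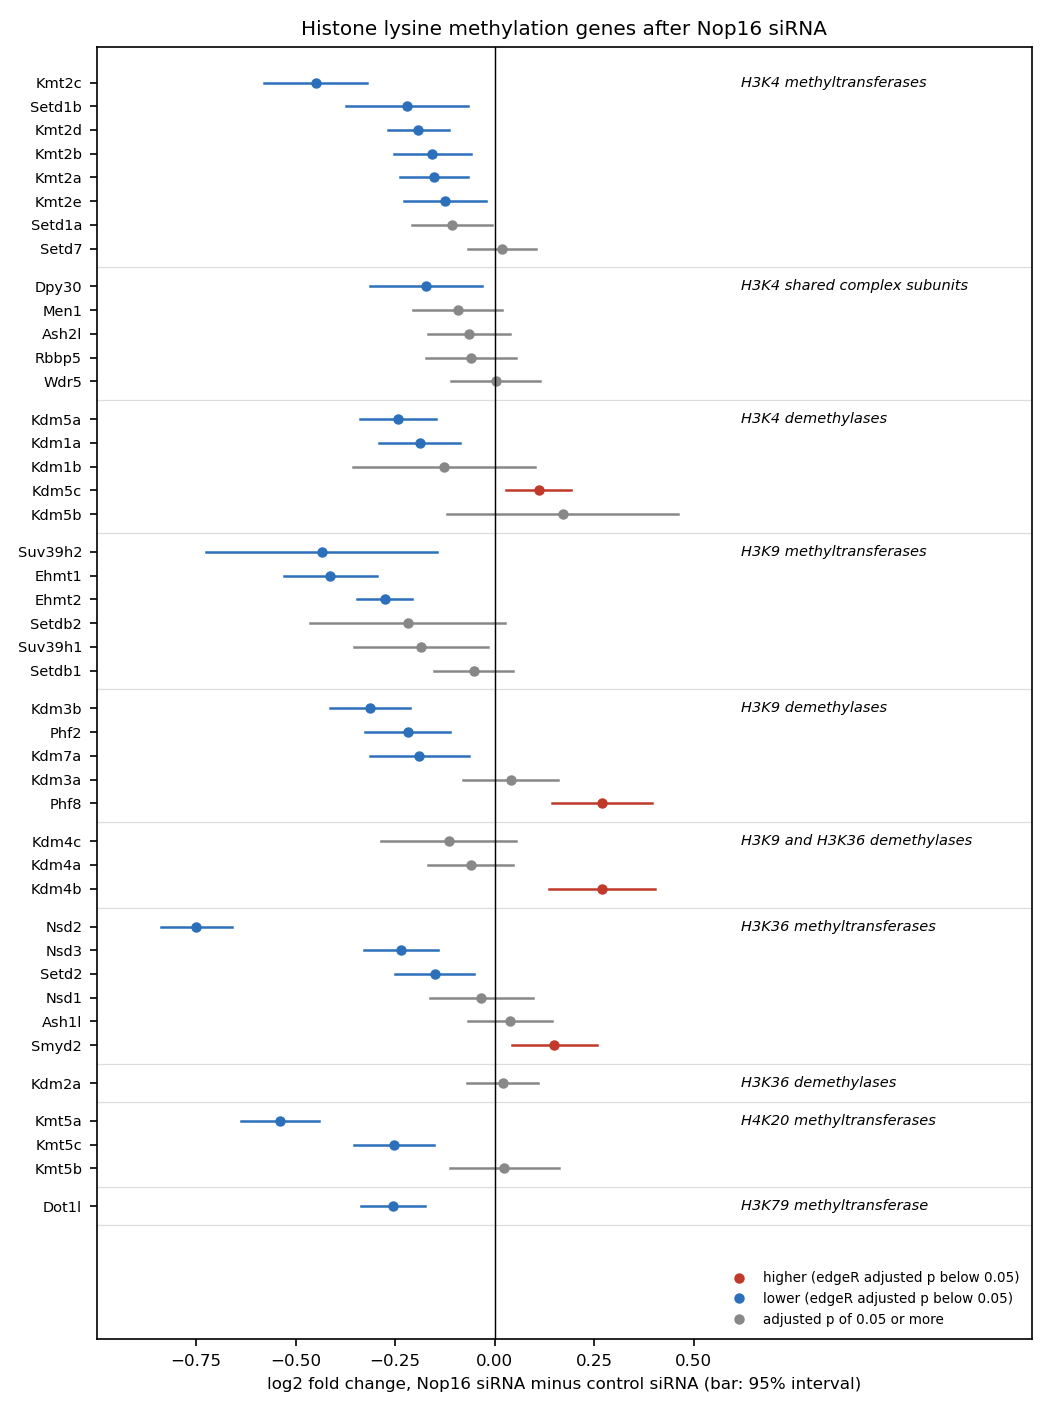
Log2 fold change of each of the 43 genes (horizontal axis, Nop16 siRNA minus control siRNA) with its 95% interval, grouped by target lysine and role; colour gives the edgeR call. Nsd2 and Kmt5a lie farthest to the left at -0.75 and -0.54, and the 4 genes called higher lie between 0.11 and 0.27.

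Methyltransferase genes made up most of the falls, but they are also 24 of the 43 genes. Of the 24 genes listed as methyltransferases, 15 were lower and 1 was higher, with a median of -0.19. Of 14 demethylase genes, 5 were lower and 3 were higher, with a median of -0.09. Over all genes tested, 22.4% were lower and 23% higher. The difference between the classes was not tested. Only Nsd2, Kmt5a, Kmt2c and Ehmt1, all methyltransferase genes, also passed an edgeR test against a minimum fold of 1.2, which 16.5% of all genes passed and 8.78% passed as lower and 7.77% as higher.

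**Figure D2:**
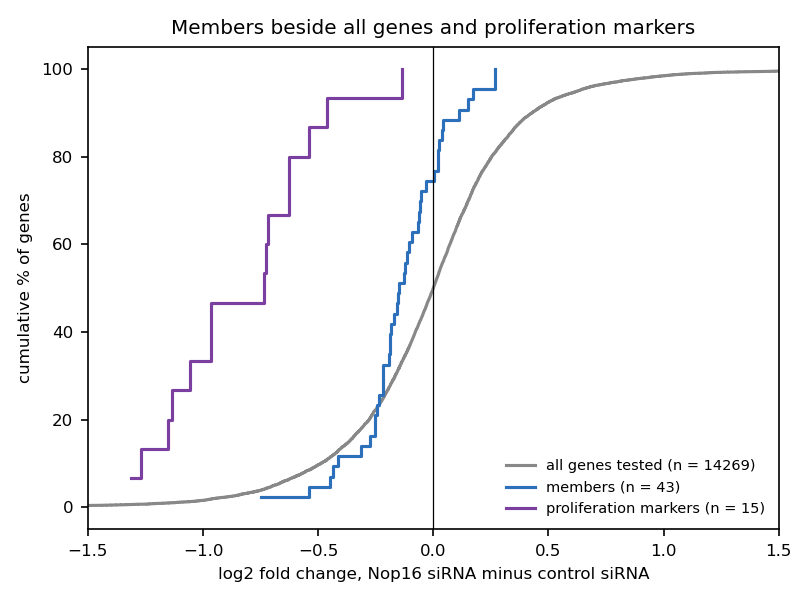
Cumulative percentage of genes (vertical axis) by log2 fold change (horizontal axis, Nop16 siRNA minus control siRNA) for all 14269 genes tested, the 43 members and 15 proliferation markers. The curve of the members lies left of zero for most of its length, with a median of -0.15, but does not reach the markers, whose median is -0.74.

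Nsd2, which dimethylates H3K36 and is altered in multiple myeloma, fell more than any other member. The gene (ENSMUSG00000057406) lies on the plus strand of GRCm38 at chr5:33820725-33897975. Its level was 108, 112 and 109 CPM in control replicates 1 to 3, and 64.9, 66.6 and 64.2 CPM after Nop16 siRNA. The groups were far apart and each was tight. The level after Nop16 siRNA was 59.5% of control (95% interval 55.9 to 63.3%), a log2 fold change of -0.75 (SE 0.0445, edgeR adjusted p = 4.86e-22).

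Kmt5a, also known as SET8, is the enzyme that puts the first methyl group on H4K20, and its protein is destroyed in S phase through PCNA and the ubiquitin ligase adaptor encoded by Dtl. The gene (ENSMUSG00000049327) lies at chr5:124439930-124462308 on the plus strand. Its RNA stood at 91.4, 86.6 and 83.7 CPM in controls and at 56.7, 63.1 and 60.1 CPM after Nop16 siRNA. No Nop16 siRNA library came near a control library, and the level fell to 68.8% of control (64.2 to 73.7%, log2 fold change -0.54, SE 0.0494, edgeR adjusted p = 2.51e-14).

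Kmt2c, which with Kmt2d methylates H3K4 at enhancers, lies at chr5:25271798-25498783 on the minus strand. It had 41.9, 46.8 and 44.4 CPM in controls against 33, 31.4 and 33.1 CPM after Nop16 siRNA, or 73.2% of control (67 to 80.1%, log2 fold change -0.45, SE 0.0643, edgeR adjusted p = 2.74e-08). Ehmt1, whose product pairs with that of Ehmt2 to mono- and dimethylate H3K9, lies at chr2:24789928-24919614 on the minus strand. It had 52.6, 54.7 and 52.7 CPM in controls against 39.5, 38.4 and 42.3 CPM, or 75.1% of control (69.3 to 81.4%, log2 fold change -0.41, SE 0.0581, edgeR adjusted p = 1.78e-08). For both genes the highest Nop16 siRNA library was below the lowest control library.

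Promoter sequences in RefSeq (GRCm38.p6, 250 bases before to 50 after a start site) matched 31 of the 43 symbols. They are shown for Kmt5a, Kmt2c and Ehmt1, the genes past the 1.2-fold test that have an entry, and for Phf8, the riser with the highest fold among those with one. Each runs 5′ to 3′ on the gene's own strand from the entry nearest to the counted model's start. Capitals mark the CCAAT box (CCAAT) and the GC box (GGGCGG) on either strand, and neighbouring matches can overlap. The windows are chr5:124439680-124439979 (plus strand) for Kmt5a, chr5:25498734-25499033 (minus) for Kmt2c, chr2:24919560-24919859 (minus) for Ehmt1 and chrX:151520422-151520721 (plus) for Phf8.
Kmt5a: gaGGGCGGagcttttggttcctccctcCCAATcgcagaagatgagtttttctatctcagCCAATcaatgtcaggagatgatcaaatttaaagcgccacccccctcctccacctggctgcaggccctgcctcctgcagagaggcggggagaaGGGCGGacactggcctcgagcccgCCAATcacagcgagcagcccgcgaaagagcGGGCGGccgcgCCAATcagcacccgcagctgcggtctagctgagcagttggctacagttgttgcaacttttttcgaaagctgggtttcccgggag
Kmt2c: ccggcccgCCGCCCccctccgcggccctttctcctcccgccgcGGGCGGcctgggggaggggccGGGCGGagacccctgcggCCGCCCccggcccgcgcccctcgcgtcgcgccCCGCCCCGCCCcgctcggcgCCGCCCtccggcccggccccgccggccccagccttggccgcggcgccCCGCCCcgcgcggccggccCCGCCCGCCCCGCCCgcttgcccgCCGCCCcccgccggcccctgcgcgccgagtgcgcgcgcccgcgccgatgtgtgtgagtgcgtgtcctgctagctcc
Ehmt1: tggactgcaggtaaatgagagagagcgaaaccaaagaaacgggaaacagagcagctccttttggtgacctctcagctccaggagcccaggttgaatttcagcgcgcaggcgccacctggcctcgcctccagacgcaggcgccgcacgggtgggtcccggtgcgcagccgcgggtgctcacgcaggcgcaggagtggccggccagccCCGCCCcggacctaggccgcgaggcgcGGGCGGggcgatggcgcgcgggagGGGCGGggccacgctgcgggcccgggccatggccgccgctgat
Phf8: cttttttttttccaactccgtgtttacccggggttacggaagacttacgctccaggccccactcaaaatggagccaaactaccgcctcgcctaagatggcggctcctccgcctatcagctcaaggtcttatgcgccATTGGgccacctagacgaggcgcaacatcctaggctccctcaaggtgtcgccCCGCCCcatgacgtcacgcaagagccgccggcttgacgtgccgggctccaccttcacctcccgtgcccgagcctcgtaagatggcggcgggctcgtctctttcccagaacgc

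The Kmt5a window holds 4 CCAAT matches, a number reached by 1.06% of all 32851 promoters and by 1.86% of the promoters of genes tested here. It also holds 3 GC boxes. The Kmt2c window holds 12 GC box matches and no CCAAT match. That many GC boxes were found in 0.0213% of all promoters and in 0.0415% of the promoters of genes tested. Ehmt1 has 3 GC boxes and no CCAAT match, and Phf8 has 1 of each. Across members, a GC box was found in 31 of 44 promoters (70.5%), against 61.8% of the promoters of genes tested and 35.7% of all. A CCAAT box was found in 36.4% of member promoters, 38.1% of those of genes tested and 37.4% of all. Of motifs linked to the cell division programme, the E2F core GCGGGAA was found in 2 of 44 (4.55%, against 4.6% of all and 8.35% of those of genes tested), those of Suv39h2 and Kmt5c. The CHR element TTTGAA was found in 3 (6.82%, against 17.9% of all and 12.4% of those of genes tested). These are letter matches only and were not tested.

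Of the 8 genes listed as H3K4 methyltransferases, which include the MLL relative Kmt2e, 6 were lower and none was higher. The median of their log2 fold changes was -0.15. Among all genes tested 22.4% were lower and 23% higher, and this small class was not tested as a set. Besides Kmt2c, the enhancer enzyme gene Kmt2d was at 168, 179 and 187 CPM in controls and at 157, 149 and 162 CPM after Nop16 siRNA, 87.6% of control (log2 fold change -0.19, edgeR adjusted p = 2.49e-05). Its groups did not overlap, but the gap between them was narrow. Kmt2a and Kmt2b, the genes of the MLL1 and MLL2 promoter enzymes, were at 90% and 89.7% of control (log2 fold changes -0.15 and -0.16, edgeR adjusted p = 0.00249 and 0.00545). Setd1b, one of the enzymes of bulk H3K4 trimethylation, had 28.9, 26 and 29.6 CPM in controls and 23.8, 24.5 and 24.1 CPM after Nop16 siRNA, 85.8% of control (log2 fold change -0.22, edgeR adjusted p = 0.0149). Leaving out control replicate 1 (edgeR adjusted p = 0.0513) or control replicate 3 (0.079) ended the call, as did thinning to equal depth (0.106) and DESeq2 (0.053).

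Kmt2e, an MLL relative that binds trimethylated H3K4 through its PHD finger, was at 91.7% of control (log2 fold change -0.13, edgeR adjusted p = 0.0412), and its groups overlapped. That call ended when control replicate 1 (0.167) or 3 (0.1) was left out, or replicate 1 (0.219) or 3 (0.114) of the knockdown. It also ended in DESeq2 (0.124) and limma-voom (0.0537), with thinning to equal depth (0.107) and with the exonic length trend removed (0.133). Setd1a, the most abundant of these 8 genes per kilobase of exon at 9.84 CPM per kb in controls, had 67.3, 65.6 and 67.6 CPM in controls and 58.3, 62.9 and 64.7 CPM after Nop16 siRNA. At 92.9% of control it did not pass (log2 fold change -0.11, edgeR adjusted p = 0.0788), but it passed without Nop16 siRNA replicate 3 (0.048) and with scaling by library size alone (0.0306). More than its own transcript may be counted here, since 51.8% of its exonic length lies in another model on the same strand, Gm49388. Setd7, which monomethylates H3K4 and many other proteins, was at 101.3% of control (95.5 to 108%, log2 fold change 0.02) and did not pass.

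The subunits shared by the H3K4 complexes differed little. Ash2l (95.6% of control, 89 to 103%, log2 fold change -0.06), Wdr5 (100.2%, 92.8 to 108%, 0.003) and Rbbp5 (96%, 88.7 to 104%, -0.06), which with Dpy30 form the core that activates the SET subunit, did not pass. Men1, the gene of menin, which belongs to the Kmt2a and Kmt2b complexes, was at 93.8% (86.8 to 101.3%, log2 fold change -0.09) and did not pass either. Dpy30 had 32.8, 34.1 and 32.9 CPM in controls and 30.2, 28.7 and 29.6 CPM after Nop16 siRNA, so the groups were apart by a small step. At 88.8% of control it passed (log2 fold change -0.17, edgeR adjusted p = 0.0396), and at 29 CPM per kb it was the most abundant of the 5. The call ended when control replicate 2 (0.118) or 3 (0.0631), or knockdown replicate 2 (0.114) or 3 (0.0752), was left out, in DESeq2 (0.097), with no filter on low counts (0.0566) and with the length trend removed (0.133).

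Enzymes that take methyl groups off H3K4 went both ways. Kdm5a, a JmjC enzyme of tri- and dimethyl H3K4, had 80, 78.9 and 79.5 CPM in controls and 70.2, 66.7 and 64.7 CPM after Nop16 siRNA, 84.5% of control (log2 fold change -0.24, edgeR adjusted p = 2.01e-05). Kdm1a, the gene of LSD1, which works with flavin and sits in the CoREST complex, had 78.6, 79.5 and 70.2 CPM in controls and 63.5, 69.4 and 67.4 CPM after Nop16 siRNA. It fell to 87.8% of control (log2 fold change -0.19, edgeR adjusted p = 0.0016), although control replicate 3 came close to the highest Nop16 siRNA library.

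Kdm5c, the X-linked relative of Kdm5a, was higher, with 97.2, 96.5 and 100.7 CPM in controls and 106, 104 and 108 CPM after Nop16 siRNA. The groups did not overlap, but at 108% of control (102 to 114%, log2 fold change 0.11, edgeR adjusted p = 0.0249) the difference was small. It no longer passed when control replicate 1 (0.0751) or 2 (0.0934) or knockdown replicate 3 (0.12) was left out, nor in DESeq2 (0.0649), with scaling by library size alone (0.08), with no filter on low counts (0.0556) or with thinning (0.0711). Kdm1b (91.5% of control, 78.1 to 107%, log2 fold change -0.13) and Kdm5b (113%, 92.1 to 138%, 0.17) did not pass. Kdm5b was scarce, at 0.379 CPM per kb in controls, so its interval is wide.

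None of the 6 H3K9 methyltransferase genes was higher, and 3 were lower. The shares over all genes tested were 23% higher and 22.4% lower, and this small class was not tested as a set. Ehmt2, the gene of G9a, was the most abundant member per kilobase at 49.3 CPM per kb in controls. It had 268, 262 and 282 CPM in controls and 237, 217 and 216 CPM after Nop16 siRNA, 82.6% of control (78.6 to 86.7%, log2 fold change -0.28, edgeR adjusted p = 1.6e-09). Thus Ehmt1 and Ehmt2, the partners in one enzyme, were both lower in every Nop16 siRNA library than in any control library.

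Suv39h2, which like Suv39h1 trimethylates H3K9 at pericentromeric heterochromatin, had 8.62, 7.79 and 6.98 CPM in controls and 6.4, 6.22 and 4.78 CPM after Nop16 siRNA. It was at 74% of control with a wide interval (60.4 to 90.5%, log2 fold change -0.44, edgeR adjusted p = 0.0112), and the nearest libraries of the groups were close. Leaving out control replicate 1 (0.077) or knockdown replicate 3 (0.116) ended the call, as did DESeq2 (0.0573). Suv39h1 was at 87.9% of control (78.3 to 98.8%, log2 fold change -0.19) and did not pass (edgeR adjusted p = 0.0656), though it did without control replicate 1 (0.0309), with library size scaling (0.0375), with a filter of 5 CPM (0.0496) and with the length trend removed (0.0405). Setdb1, the enzyme that TRIM28 brings to retroelements, was at 96.4% (90 to 103%, log2 fold change -0.05), and its relative Setdb2 at 85.9% (72.6 to 102%, -0.22), and neither passed.

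The H3K9 demethylase genes also split. Kdm3b, a JmjC enzyme of mono- and dimethyl H3K9, had 82.5, 78.4 and 81 CPM in controls and 64.3, 60.2 and 69.8 CPM after Nop16 siRNA, 80.4% of control (75 to 86.2%, log2 fold change -0.31, edgeR adjusted p = 3.45e-07). Its close relative Kdm3a stood at 103% of control (94.7 to 112%, log2 fold change 0.04) and did not pass. Phf2 had 63.3, 62.6 and 67.9 CPM in controls and 52.3, 57.9 and 56 CPM after Nop16 siRNA, 85.9% of control (log2 fold change -0.22, edgeR adjusted p = 0.000447). Both the Kdm3b and the Phf2 groups were fully apart.

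Phf8, of the same PHD and JmjC family as Phf2, removes methyl groups from H3K9 and H4K20 and was higher. It lies at chrX:151520672-151633859 on the plus strand. Its level was 35.5, 39 and 35.5 CPM in controls and 44.3, 45.9 and 42.5 CPM after Nop16 siRNA, 121% of control (111 to 132%, log2 fold change 0.27, SE 0.0627, edgeR adjusted p = 0.000283). Kdm7a, the remaining gene of that family here, was lower at 87.7% of control (log2 fold change -0.19, edgeR adjusted p = 0.0101). That call ended when control replicate 1 (0.0546) or knockdown replicate 2 (0.057) was left out.

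Kdm4b, one of the enzymes that act on both trimethyl H3K9 and trimethyl H3K36, was also higher. The gene lies at chr17:56326062-56402870 on the plus strand. It had 31.8, 34.2 and 31.7 CPM in controls and 38.6, 39.7 and 39.5 CPM after Nop16 siRNA, 121% of control (110 to 132%, log2 fold change 0.27, SE 0.0658, edgeR adjusted p = 0.000518). All Nop16 siRNA libraries were above all controls. Kdm4a, the most abundant of the 3 related genes at 9.37 CPM per kb in controls, had 52.5, 55 and 55 CPM in controls and 51.2, 51.9 and 52.7 CPM after Nop16 siRNA, and did not pass (95.9% of control, 89 to 103%, log2 fold change -0.06). Kdm4c did not pass at 92.3% (82.1 to 104%, log2 fold change -0.12).

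Among the H3K36 enzymes the falls beside Nsd2 were smaller. Nsd3, another dimethylase of the NSD family, had 82, 85.1 and 81.7 CPM in controls and 73.5, 69.3 and 68.8 CPM after Nop16 siRNA, 85% of control (log2 fold change -0.24, edgeR adjusted p = 2.8e-05). Nsd1, the family's other member, was at 97.7% of control (89.3 to 107%, log2 fold change -0.03) and did not pass. Setd2, which trimethylates H3K36 behind elongating RNA polymerase II, had 84.3, 79.8 and 80.5 CPM in controls and 66.6, 75.9 and 77.4 CPM after Nop16 siRNA. At 90.1% of control it passed (log2 fold change -0.15, edgeR adjusted p = 0.00972), and Nop16 siRNA replicate 1 lay below the other libraries. Without that library the call ended (adjusted p = 0.159, log2 fold change -0.09), as it did when control replicate 1 was left out (0.0646).

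Smyd2, a methyltransferase of H3K36 and of proteins such as p53, was higher. It had 55.9, 52.4 and 55.6 CPM in controls and 61.5, 56.9 and 63.4 CPM after Nop16 siRNA, 111% of control (103 to 120%, log2 fold change 0.15, edgeR adjusted p = 0.0177). Its groups were apart only by a narrow step, and leaving out control replicate 2 (0.11) or knockdown replicate 3 (0.142) ended the call, as did DESeq2 (0.0631). Ash1l, which methylates H3K36 at active genes, was at 103% of control (95.4 to 110%, log2 fold change 0.04). Kdm2a, an H3K36 demethylase that binds CpG islands, had 83.1, 86.3 and 83.2 CPM in controls and 87.7, 83.4 and 85.2 CPM after Nop16 siRNA, which overlapped (101.4% of control, 95.3 to 108%, log2 fold change 0.02). Neither of these passed.

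For H4K20, Kmt5a was joined by Kmt5c, one of the enzymes that add the further methyl groups. Kmt5c was at 67.7, 67.3 and 67.9 CPM in controls and at 58.1, 55.3 and 56.9 CPM after Nop16 siRNA, 83.9% of control (78.3 to 90%, log2 fold change -0.25, edgeR adjusted p = 2.62e-05). Kmt5b, another of those enzymes, was at 102% of control (92.5 to 112%, log2 fold change 0.02) and did not pass. Dot1l, the H3K79 methyltransferase, which has no SET domain, had 127, 132 and 133 CPM in controls and 115, 104 and 109 CPM after Nop16 siRNA. It fell to 83.8% of control (79.3 to 88.6%, log2 fold change -0.26, edgeR adjusted p = 2.47e-07), with groups that did not overlap.

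**Figure D3:**
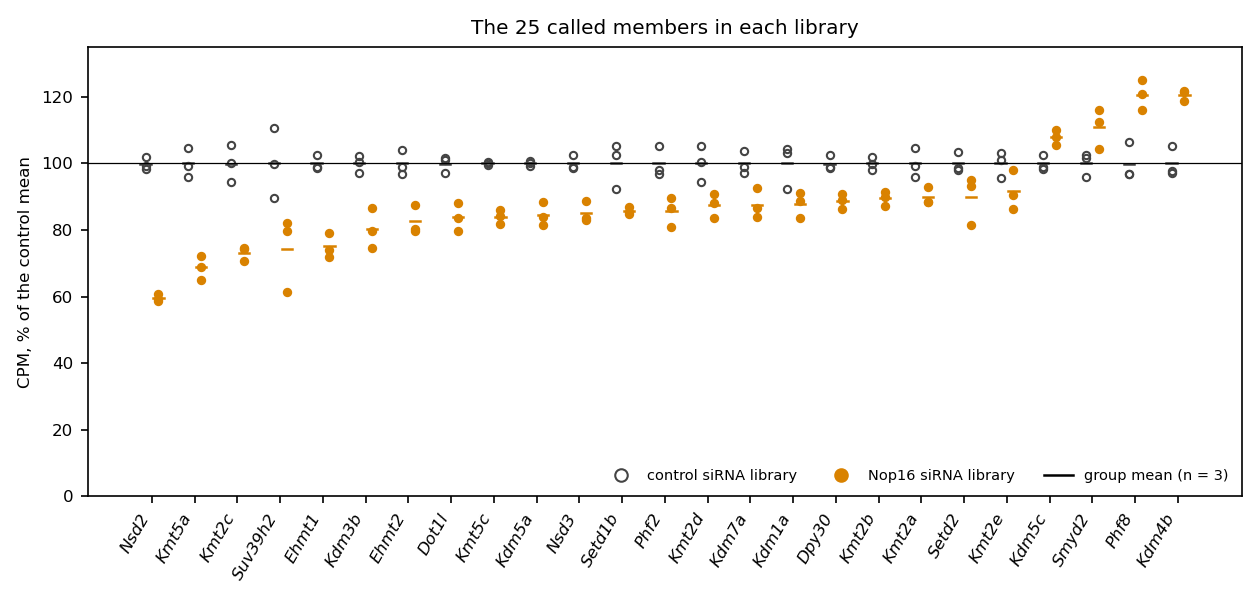
Level of each of the 25 genes that passed, in every library, as a percentage of that gene's control mean (vertical axis, from CPM); open points are control siRNA libraries, filled points Nop16 siRNA libraries and short lines group means of 3. Nsd2, at the far left, lies near 60% in each Nop16 siRNA library, and Phf8 and Kdm4b, at the far right, lie near 120%.

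Ratios of related genes within a library do not depend on how libraries are scaled, so 17 pairs were compared in this way. The ratio of Nsd2 to Nsd1 counts was 2.89, 2.8 and 2.74 in controls and 1.86, 1.68 and 1.62 after Nop16 siRNA. The ratio of Nsd2 to Nsd3 counts went from 1.32 ± 0.0102 to 0.926 ± 0.0392 (SD, n = 3 each), so that Nsd3 had more counts than Nsd2 only after Nop16 siRNA. Kmt5a to Kmt5c went from 1.29 ± 0.0591 to 1.06 ± 0.0819, and Kmt2c to Kmt2d from 0.249 ± 0.0121 to 0.209 ± 0.00314. In these 4 pairs the groups did not overlap.

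Of the demethylase pairs, 5 did not overlap. Each is written with the gene of the higher fold change first, so the shared direction of these ratios is set by that choice and restates the changes of the single genes. Phf8 to Phf2 counts stood at 0.561, 0.623 and 0.522 in controls and at 0.847, 0.792 and 0.759 after Nop16 siRNA. Kdm4b to Kdm4c went from 1.64 ± 0.0398 to 2.14 ± 0.0361, Kdm4b to Kdm4a from 0.602 ± 0.0238 to 0.757 ± 0.00725, Kdm5c to Kdm5a from 1.23 ± 0.0276 to 1.58 ± 0.0833 and Kdm3a to Kdm3b from 0.58 ± 0.0521 to 0.744 ± 0.0818. The methyltransferase pair Kmt5b to Kmt5c, written likewise, went from 0.532 ± 0.00424 to 0.645 ± 0.0586. In all, 10 of 17 ratios did not overlap. The pairs were chosen after the data were seen, several share a gene, and no background for ratios was computed, so nothing is read from this count. The ratio of the partners Ehmt1 to Ehmt2 was 0.197 ± 0.0109 in controls and 0.179 ± 0.0148 after Nop16 siRNA (91% of control), where only Nop16 siRNA replicate 3, at 0.196, reached the control range. Overlap was also found for Kmt2a to Kmt2b (1.41 ± 0.0481 and 1.41 ± 0.0496) and Suv39h1 to Suv39h2 (2.93 ± 0.434 and 3.5 ± 0.643). With 3 libraries a group the two-sided exact permutation test cannot go below p = 0.1, which all 10 pairs reached (0.17 when adjusted over 17 pairs).

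**Figure D4:**
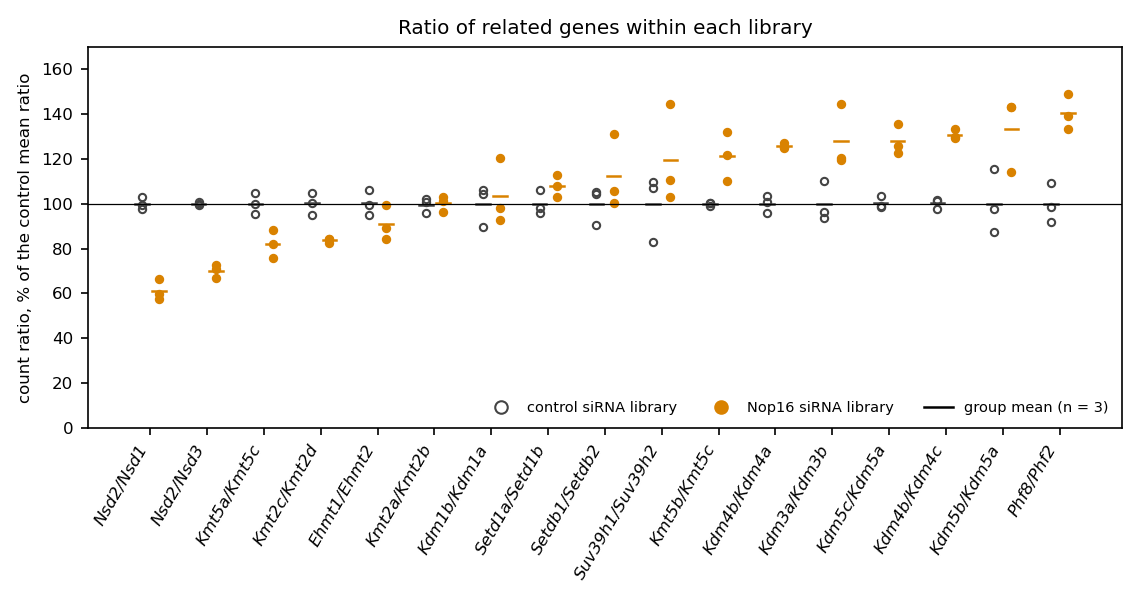
Count ratio of 17 pairs of related genes in every library, as a percentage of the pair's control mean ratio (vertical axis); open points are control siRNA libraries, filled points Nop16 siRNA libraries and short lines group means of 3. The Nsd2 to Nsd1 ratio is lowest at 61.2% of control, and the Phf8 to Phf2 ratio is highest at 141%.

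Proliferation genes moved with these falls. All 15 proliferation markers were lower (median log2 fold change -0.74), none was at 0, and their summed level was 2940 to 3012 CPM in controls and 1842 to 1877 CPM after Nop16 siRNA. Mki67 was at 564 and 343 CPM and Top2a at 467 and 239 CPM in the respective groups. Their part in the falls of Nsd2, Kmt5a and the other members was not tested. Long genes also moved: of 1109 tested protein-coding genes with at least 10 kb of exon, 338 were lower and 251 higher, against 2384 lower and 2807 higher of 10470 shorter ones. Of the 17 members this long, 11 were lower and none was higher, and of the 26 shorter members 10 were lower and 4 higher. With the trend on exonic length removed, 20 members were lower and 4 higher, and the members' median log2 fold change went from -0.151 to -0.125.

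Genes that work beside these enzymes were read from lists of partners and readers. Over all 14269 genes tested, 22.4% were lower and 23% higher. The lists below are short, none was tested against these shares, and nothing is read from their counts. Among 16 tested H3K9 readers and silencing partners, 8 were lower and 2 higher, with a median of -0.16. Cbx5, the gene of the H3K9 reader HP1 alpha, fell from 193 to 125 CPM (log2 fold change -0.62, edgeR adjusted p = 2.7e-22), the chromatin assembly factor gene Chaf1a by 0.53 on the log2 scale and Uhrf1, which links H3K9 methylation to DNA methylation, by 0.52. All 3 heterochromatin protein genes Cbx1, Cbx3 and Cbx5 were lower, as was Trim28. Of 7 tested genes of H4K20 reading and its link to replication, 4 were lower and 1 was higher. Dtl fell by 0.73 and the licensing factor gene Cdt1 by 0.58 on the log2 scale, while L3mbtl3 rose 1.64-fold from 5.79 to 9.49 CPM.

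Of 11 tested H3K4 targeting factors 5 were lower and none was higher, with a median of -0.16. Paxip1, of the Kmt2c and Kmt2d complexes, fell by 0.46 on the log2 scale, Psip1, which tethers menin complexes to chromatin, by 0.42, and Hcfc1, of the Setd1 and Kmt2a complexes, by 0.40. Among 11 LSD1 and CoREST partners 4 were lower and none was higher (median -0.10), with Phf21a down by 0.45, Rcor3 by 0.31 and Hdac2 by 0.17 on the log2 scale.

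The 8 H3K79 partners divided evenly, with 4 higher and 3 lower. The elongation factor genes Eaf1 and Ell rose 1.47-fold and 1.30-fold, whereas Mllt10, which brings Dot1l to chromatin, fell by 0.36 on the log2 scale. Of 11 H3K36 readers and partners 4 were lower and 2 higher. Psip1, which is on this list too, led the falls, the mismatch repair gene Msh6 fell by 0.33 and Iws1 by 0.30, and the elongation factor gene Supt6 rose 1.16-fold. Among 14 other SET domain genes tested, 2 were lower and 1 higher. Smyd5 fell by 0.58 and Setd5 by 0.19, and Prdm4 rose 1.15-fold. Of 6 other demethylase genes tested, Kdm2b (-0.35) and Jmjd1c (-0.30) were lower and none was higher.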

How the data were processed

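The authors deposited unscaled fragment counts for each gene, made with featureCounts 2.0.1 on Ensembl release 101 models of GRCm38, per the file headers. Strand setting 2 was used, properly paired fragments were kept, and multi-mapped fragments and those in several genes were counted, per the file headers, so counts of close relatives and overlapping models are uncertain. The submitters' processing notes name Trim Galore and HISAT2 2.2.1. Symbols came from a GENCODE mouse release M21 table (55141 of 55401 identifiers). Of 190 entries in the member, partner and marker lists, 189 were matched.

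Counts were compared with the edgeR 4.0.16 quasi-likelihood test (R 4.3.3) with TMM scaling, filterByExpr and robust dispersion, over all 14269 genes kept, with Benjamini-Hochberg adjustment and a threshold of 0.05. Intervals are at 95% and come from the test's standard error. The alternatives were other scalings and filters, DESeq2 1.42.0, limma 3.58.1 (voom), robust dispersion off, a replicate block, thinning, removal of the exonic length trend, a minimum fold of 1.2 and leaving out each library. On simulated counts for 14070 genes of this comparison, edgeR recovered 64% of genes changed 1.2-fold and 98% changed 1.5-fold, and 13 of 194 calls were false. Only a small set of abundant genes was changed there, and every gene had the same dispersion. In these data 45.4% of genes passed, so the simulated rates may not hold for them. Chi-square per degree of freedom was 2.51 to 3.14 between libraries of a group and 45.1 to 53 across groups, so none was a copy. A level of 3 counts is 0.13 to 0.192 CPM, which covers counting error only.

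The members and lists were chosen with earlier results of these data known. Every member is named. Values in each library are given for up to 3 members past the threshold with the largest change in each class and for the most abundant per kilobase. Partner lists give up to 3 changed genes, with Cbx1, Cbx3 and Trim28 added after their values were seen. Supt6 is also named beyond that number on its list. The 17 pairs and the promoter motifs were chosen after the data were seen.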

Additional observations from a re-analysis of the deposited data

How the results depend on the processing

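Across the scalings, filters, tests, thinning and length correction, 17 to 23 members were lower and 2 to 4 higher, against 21 and 4 as reported. DESeq2 called 2 higher and 17 lower. Against a minimum fold of 1.2, 4 members were lower, 0 were higher (edgeR; 4 at the threshold without a minimum fold) and 2361 genes changed in all, since that test asks for more than a difference from zero. Leaving out each library left 2 to 4 members higher, 17 to 20 lower and 5839 to 6049 genes changed. The number higher was 2 when control replicate 2, or knockdown replicate 3, was left out. No member past the threshold changed direction in any of the 18 alternatives. Apart from the minimum fold, 8 of the 25 calls were lost in at least 1 alternative, and 2 other genes (Setd1a and Suv39h1) passed in at least 1. Same-numbered libraries did not deviate together (r of 0.0175, -0.0198 and -0.0223 for numbers 1, 2 and 3), and with a replicate block 21 members were lower, 4 higher and 6429 genes changed. Library size scaling shifted the median of all genes by -0.02 on the log2 scale. Depth limits small changes: the interval of Kdm5b, which had 98 to 167 counts in a library, spans 92.1 to 138% of control.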

Other observations

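Kdm5d, the Y-linked relative of Kdm5c, had 0 counts in all 6 libraries, as did the Y-linked genes Uty, Ddx3y and Eif2s3y. A count of 0 allows up to 0.13 to 0.192 CPM in these libraries. Counts above 0 were found for 7 of 1569 models on the Y chromosome, with 136394 in all over the 6 libraries, and which transcripts gave them was not tested. RAW264.7 was started from a male mouse.

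Prdm9, a histone H3 methyltransferase known from meiosis, was counted at 14.2, 12 and 12 CPM in controls and at 12.2, 9.62 and 11.6 CPM after Nop16 siRNA, and did not pass (edgeR adjusted p = 0.149). Smyd1, known from muscle, was at 2.15 and 3.1 CPM and did not pass either (0.0655). Multi-mapped fragments were counted, so which transcripts gave these counts was not tested.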
